A study of Mus musculus with 116 samples.

Results

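The genes described here carry symbols of cytosolic ribosomal proteins, and whether each product is part of the ribosome was not examined. They were taken by symbol: Rpl or Rps followed by a number, with at most 1 letter and 1 further digit, the acidic stalk genes Rplp0 to Rplp2, and Rpsa. Rps27a, the Rps6k kinase genes and symbols with -ps, which mark pseudogenes, were left out. Rpl6l fits the symbol rule and was kept, although RefSeq lists it as a pseudogene. The rule found 84 of the 40202 symbols in the count files, 53 for the large subunit with its stalk and 31 for the small subunit. The libraries came from 2 untreated mouse lines grown under standard culture, C10, labelled as alveolar type II epithelial cells, and SVEC, labelled as endothelial cells. They were prepared by nanoSPLITS, in which the lysate of few cells is divided between RNA and protein measurement. An input series of C10 held 8 libraries of 1 cell, 6 of 3 cells and 6 of 10 cells, and a single-cell series held 48 C10 and 48 SVEC libraries, read as single reads of 150 bases from full-length cDNA.

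Each ribosomal protein occurs in about equal number per ribosome, and growing cells devote much of their mRNA to these proteins. Their mRNAs typically start with an uninterrupted run of pyrimidines, the 5′ terminal oligopyrimidine tract, through which mTORC1 and its effector LARP1 control their translation together. Several members have a paralog, a second gene for a closely related protein, and the members of such a pair can be used in different proportions in different cells.

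The letters around the annotated starts of the genes that the results below turn on are printed here. The genes are Rpl22l1 and its paralog Rpl22, whose proportions differed between the lines, and Rps15a, Rps12 and Rpl34, which with Rpl22l1 had the largest differences. Each window runs from 50 bases before the annotated start through the first 20 bases of the gene, 5′ to 3′ on the gene's strand, from the RefSeq annotation of GRCm38.p6. The capitals mark the longest run of C or T that touches the 10 bases on either side of the start. Positions are on chr3:28805458-28805527 (+ strand) for Rpl22l1, chr4:152324386-152324455 (+) for Rpl22, chr7:118116128-118116197 (-) for Rps15a, chr10:23787190-23787259 (-) for Rps12 and chr3:130730318-130730387 (-) for Rpl34.
Rpl22l1: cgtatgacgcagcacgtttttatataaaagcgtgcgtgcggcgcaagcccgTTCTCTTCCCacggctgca
Rpl22: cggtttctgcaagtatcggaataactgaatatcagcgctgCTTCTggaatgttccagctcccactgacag
Rps15a: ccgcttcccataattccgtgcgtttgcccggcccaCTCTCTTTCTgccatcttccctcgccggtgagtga
Rps12: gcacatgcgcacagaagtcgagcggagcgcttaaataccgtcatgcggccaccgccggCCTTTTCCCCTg
Rpl34: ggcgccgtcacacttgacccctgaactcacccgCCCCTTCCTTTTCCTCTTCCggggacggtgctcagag

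The run was 10 bases in Rpl22l1, 10 in Rps15a, 11 in Rps12, 20 in Rpl34 and 5 in Rpl22. Of these 5 marked runs, only that of Rpl34 spanned the annotated start. The marked runs of Rps15a and Rpl22 lay before it, that of Rpl22l1 began at base 2 of the gene and that of Rps12 at base 9. In Rps15a a shorter unmarked run, tcttccctc, did span the start. In Rpl22 an unmarked run of equal length, ctccc, lay after it, and the first of the equal runs was marked. The marked letters therefore need not be the tract at which the mRNA begins. Of the 64 members with an entry in the RefSeq promoter table, 30 (46.9%) held a run of at least 8 C or T bases there, against 15.8% of the 27025 genes in that table. CCGGAAG, searched on both strands from 250 bases before to 50 after the start, was present in 26 of the 64 (40.6%), against 9.93% of all genes. CACGTG was present in 6 members (9.38% against 8.09%) and TATAAA in 8 (12.5% against 15.7%), again on both strands. The reverse complement of CCGGAAG starts with 5 pyrimidines, so a match can share bases with the C or T run, as it does in Rpl34. These matches describe letters in a window.

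Library size and quality differed between groups. Totals ran from 6889508 to 15385625 counts in the input series apart from 1-cell replicate 1, which held 430798 counts, had 64.6% of them on mitochondrial genes and detected 9 members. The C10 single cells had a median of 1881700 counts and the SVEC single cells 434945. C10 single-cell replicates 37 and 48 had 971 and 56 counts and were left out by a minimum of 1000 counts. Mitochondrial counts were also over 20% in C10 replicate 24 (30.9%), SVEC replicates 24 (27.5%) and 48 (22.4%) and 1-cell replicate 14 (25.6%), and the 2 SVEC libraries detected 44 and 41 members. Of the alveolar markers, the lung factor Nkx2-1 and the surfactant protein genes Sftpa1 to Sftpd (Sftpb and Sftpc included) were at 0 in all used single cells of both lines. Of the 11 genes in that list 6 were at 0 in C10 and 8 in SVEC, and the epithelial cadherin gene Cdh1 had a count in 24 of 46 C10 and 1 of 48 SVEC cells. No endothelial marker of the 10 examined was detected in 50% of the SVEC libraries, and Kdr, Tie1, Emcn and Vwf were at 0 there. Of 5 fibroblast markers, the collagen gene Col1a1 had a count in 46 of 46 C10 and 47 of 48 SVEC cells. Col3a1 had a count in 37 C10 and 27 SVEC cells. Col1a2, Pdgfra and Pdgfrb were each detected in at most 9 C10 and 10 SVEC cells. What these markers say of the identity of the lines was not tested. Nothing in the labels states that libraries came from separate cultures, so p-values measure the spread between these libraries.

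Ribosomal protein genes took a larger share of counts in C10 single cells than in SVEC single cells. The share in C10 was 1.92% at the lowest, 6.19% at the median and 10.4% at the highest, with a mean of 6.33% ± 1.62 (SD, n = 46). In SVEC it was 1.75%, 3.87% and 7.81%, with a mean of 3.75% ± 1.196 (SD, n = 48). The ranges overlapped, but 45 of the 46 C10 cells lay above the SVEC median and 46 of the 48 SVEC cells lay below the C10 median. The C10 cell below was replicate 24, and both highest SVEC values, 7.81% and 7.36%, were in libraries of 5122 and 18621 counts. No test of this share was made. Large-subunit genes made up 63.6% ± 1.59 of the ribosomal protein counts over the 46 C10 cells and 63.4% ± 3.71 over the 48 SVEC cells (SD).

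In the input series the share was 4.19% ± 1.27 with 1 cell (SD, n = 8; range 1.498% to 5.69%), 5.03% ± 0.528 with 3 cells (SD, n = 6; range 4.30% to 5.78%) and 5.63% ± 0.510 with 10 cells (SD, n = 6; range 4.92% to 6.40%). The 3 ranges overlapped, and the lowest 1-cell value was that of replicate 1. Symbols with -ps, which are not members, added 0.0413% ± 0.0142 of counts in C10 single cells (SD, n = 46) and 0.0294% ± 0.0165 in SVEC (SD, n = 48).

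**Figure D1:**
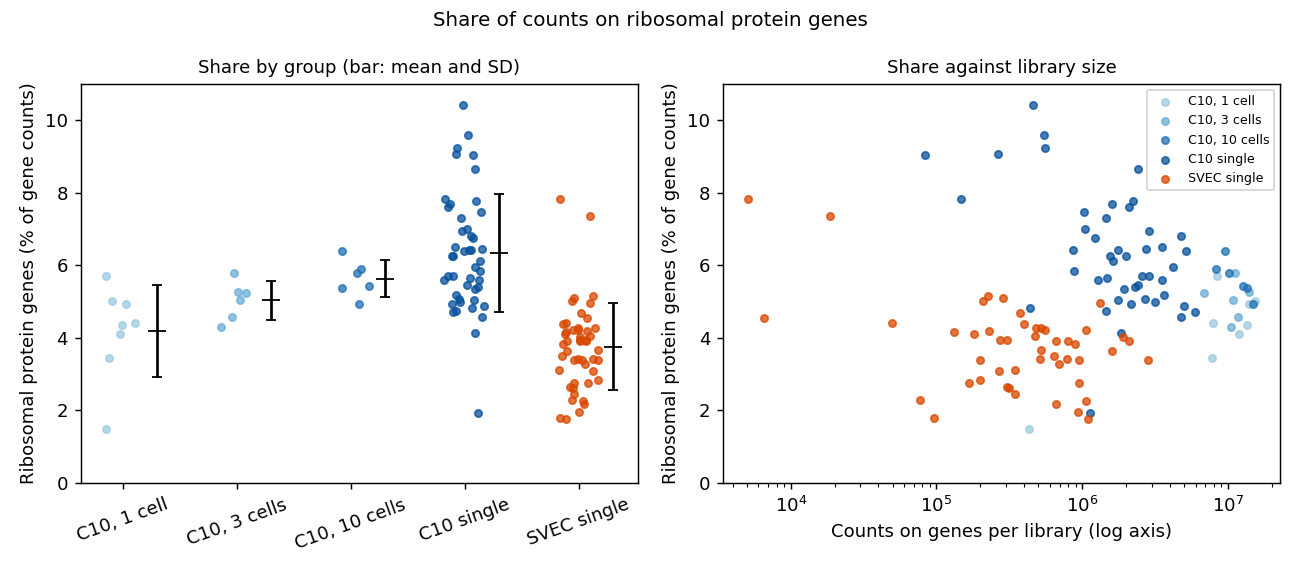
Ribosomal protein genes as a percent of gene counts per library, by group (left; points are libraries, bars the mean and SD) and against the counts on genes (right, log axis). C10 single cells centre on 6.33% and SVEC on 3.75%, and the highest SVEC points belong to libraries of 5122 and 18621 counts.

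Levels were compared between members as counts per 1000000 counts on genes (CPM) per kilobase of transcript, since long transcripts collect more reads. In C10 single cells the highest were Rpl38, with 3447 ± 1527 CPM per kilobase (SD, n = 46), Rpl23a, with 3016 ± 1082, and Rpl32, with 2794 ± 920.3, all of the large subunit. The lowest among members detected in at least 50% of the cells were Rpl28, with 2.00 ± 2.48, Rps20, with 115 ± 50.1, and Rpl22, with 116 ± 100.1. The median over 78 members was 1111 CPM per kilobase in C10 and, over 77 members, 556 in SVEC. The gaps between the means of Rpl38, Rpl23a and Rpl32 were smaller than their SDs. These values used the shortest principal GENCODE transcript of each gene, the third of 3 length rules tried. Both earlier rules were replaced after the levels had been seen, and the last change was prompted by the 5130-base transcript that the second rule gave Rps15a. Under all 3 rules Rpl38 and Rpl23a were highest in C10, and Rpl28, Rps20 and Rpl22 were lowest. The third place was taken by Rps27l under the rule tried first. In SVEC the rules gave different genes: Rps15a was lowest under both earlier rules, at 29.9 CPM per kilobase, and Rps20 under the rule used, at 79.9. The annotated length of Rps20, 3706 bases, was the longest of the members.

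**Figure D2:**
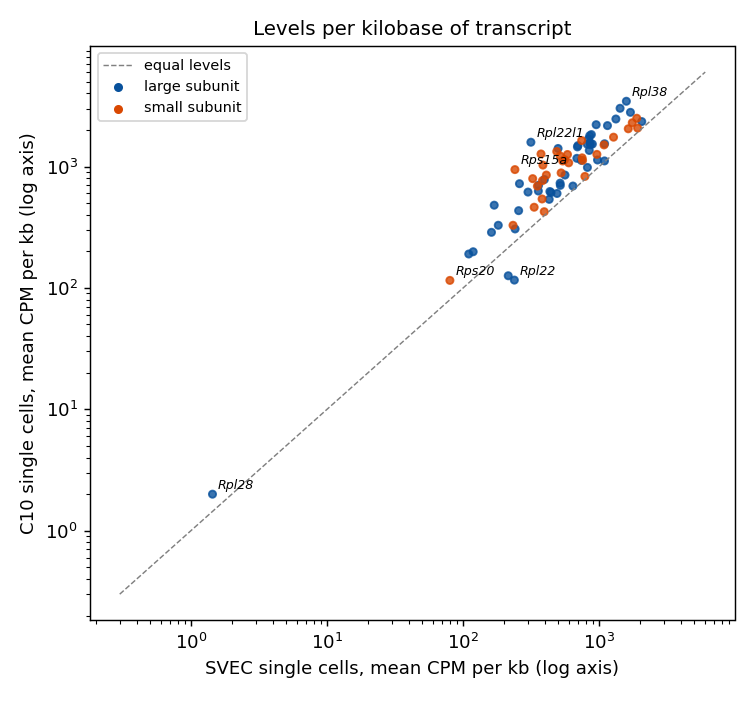
Mean CPM per kilobase of transcript for each member in C10 (vertical) against SVEC single cells (horizontal), both on log axes, with large-subunit genes in blue and small-subunit genes in orange. Most points lie above the line of equal levels, Rpl22 and Rpl35a lie below it, and Rpl28 is far below the others in both lines.

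A few members were barely seen. Rpl10l, Rpl32l and Rpl39l were listed at 0 in all libraries. Over the 99332009 counts of the C10 single cells a count of 0 allows up to 0.0302 CPM, and over the 29017802 counts of the SVEC single cells up to 0.103 CPM, for counting error only. Rpl3l, the striated muscle paralog of Rpl3, had 324 counts in a single 3-cell library, replicate 9, and none elsewhere. Rpl28 had a count in 30 of 46 C10 and 14 of 48 SVEC single cells, at 1.54 ± 1.91 CPM (SD, n = 46) and 1.11 ± 2.27 CPM (SD, n = 48). Why Rpl28 is so low in the deposited counts was not tested.

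The comparison of the lines asked which members separate C10 from SVEC. Of the 84 members, 79 passed the filter on detection, and 71 of these were higher in C10 and 0 lower (edgeR's quasi-likelihood test, Benjamini-Hochberg adjusted p under 0.05). Among all 9303 genes tested, 14.4% were higher in C10 and 4.48% lower. The median log2 fold change was 1.10 over the members and 0.35 over all genes, so the members lay 0.76 above the median of all genes. Counts simulated with no difference between the lines also gave a median above 0 with this scaling, and edgeR then called some unchanged genes, mostly poorly detected ones and few members. The shares over all genes therefore hold false calls, and a log2 difference is read against 0.35. With library totals alone as the scaling, the median was 0.014 over all genes and 0.78 over the members. limma called 67 members higher and 0 lower, beside 2895 and 328 of all 9303 genes. The 49 large-subunit genes tested had 43 higher and a median of 1.18, and the 30 small-subunit genes had 28 higher and a median of 1.06. Rpl6l, listed as a pseudogene, was among the large-subunit symbols called higher (1.18).

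**Figure D3:**
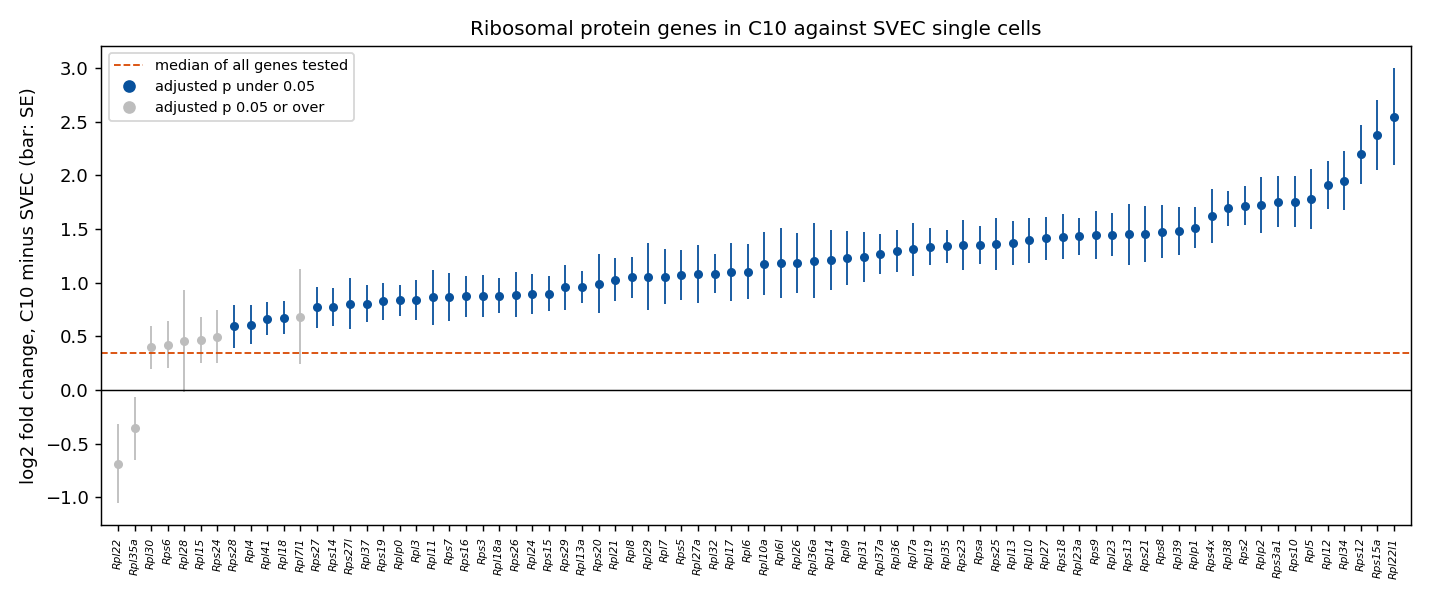
Log2 fold change of 78 of the 79 tested members in C10 minus SVEC single cells, in rank order, with the standard error as a bar. Blue points passed an adjusted p of 0.05, grey points did not, and the dashed line is the median of all genes tested, 0.35. Rpl22 and Rpl35a are the points below 0.

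Rpl22l1, the paralog of the rRNA-binding protein gene Rpl22, had the largest difference. Its level in C10 was 3.52 CPM at the lowest, 753 at the median and 2412 at the highest, and in SVEC 0, 54.8 and 1144. It was higher in C10 by 2.55 on the log2 scale (SE 0.46, edgeR adjusted p = 4.8e-06). The groups overlapped, and the lowest C10 value was that of replicate 24, the next being 388 CPM. Rps15a, of the small subunit, had 95.0, 566 and 1408 CPM in C10 and 0, 139.8 and 976 in SVEC, a log2 difference of 2.38 (SE 0.33). Rps12, also of the small subunit, had 213, 619.9 and 2104 CPM in C10 and 0, 142 and 1128 in SVEC, a log2 difference of 2.20 (SE 0.28). Both C10 medians exceeded the SVEC medians, but the ranges overlapped for both genes.

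The next of the 10 largest were Rpl34 (1.95, SE 0.27), Rpl12, a stalk-base protein gene (1.91, SE 0.22), Rpl5, which carries 5S rRNA into the large subunit (1.78, SE 0.28), Rps10 (1.76, SE 0.23), Rps3a1 (1.76, SE 0.24), the acidic stalk gene Rplp2 (1.73, SE 0.26) and Rps2 (1.72, SE 0.19). Rpl5 had 3.52, 984 and 1671 CPM in C10, the lowest again in replicate 24, and 0, 339 and 926 in SVEC. Rps2 had 379.97, 758 and 1503 CPM in C10 and 0, 302 and 1562 in SVEC. Rps2 lies over Snhg9, Rpl5 over Dipk1a, Rps10 over Gm15420 and Rpl22 over 9430083M05Rik in the RefSeq annotation. With the strand setting of the counts not given, reads of such neighbours cannot be told apart.

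The 8 members that did not pass were Rpl22 (-0.69, SE 0.37, edgeR adjusted p = 0.20), Rpl35a (-0.36, SE 0.30), Rpl30 (0.40, SE 0.20), Rps6 (0.42, SE 0.22), Rpl28 (0.46, SE 0.48), Rpl15 (0.47, SE 0.22), Rps24 (0.50, SE 0.25) and Rpl7l1 (0.68, SE 0.44). Rps6 encodes the protein that S6 kinase phosphorylates. Rpl35a had 0.88, 51.8 and 192 CPM in C10 at the lowest, median and highest, and 0, 88.2 and 698 in SVEC. With genes detected in at least 90% of either line's libraries, Rpl22 (-1.002, adjusted p = 0.0084) and Rpl35a (-0.68, adjusted p = 0.0133) were called lower by edgeR. These were 2 of 78 members, a smaller share than the 112 of all 1832 genes called lower under this filter.

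SVEC libraries were shallower and detected 4197 ± 1817 genes (SD, n = 48) against 6347 ± 1298 in C10 (SD, n = 46). After libraries of at least 100000 counts were drawn down to 130944 counts each (45 C10 and 42 SVEC), 69 of 78 members were higher and 0 lower. Over all 7460 genes tested there, 785 were higher and 492 lower. With genes detected per library as a covariate the count was 46, beside 673 of 9303 genes. With library totals alone as the scaling it was 52 higher and 1 lower, beside 932 and 656 of 9303 genes. In the 13 alternatives 38 of the 71 members were called higher every time. The members' median lay 0.14 to 0.94 above that of all genes in these alternatives, 0.14 being the fit with a replicate block.

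The paralog pairs compare genes within a library, so the scaling between libraries does not enter. Rpl22l1 made up 94.1% ± 3.86 of the counts of Rpl22 and Rpl22l1 in C10 single cells (SD, n = 45) and 46.3% ± 37.2 in SVEC (SD, n = 40), over libraries with at least 20 counts of the pair. The difference of 47.8 percentage points gave p = 1e-05 in a two-sided permutation test, the smallest that 100000 resamples can give, and an adjusted p of 4e-05 over 4 pairs. Rpl22l1 exceeded Rpl22 in all 45 C10 cells, whereas it did so in 21 of the 40 SVEC cells and Rpl22 led in the other 19. Rpl22l1 had no count in 12 of those 40 SVEC cells, each of which held at least 100000 counts. The C10 shares ran from 83.0% to 100% and the SVEC shares from 0% to 97.6%. The input series gave 85.03% ± 12.8 with 1 cell (SD, n = 7), 83.1% ± 9.03 with 3 cells (SD, n = 6) and 85.9% ± 4.74 with 10 cells (SD, n = 6).

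**Figure D4:**
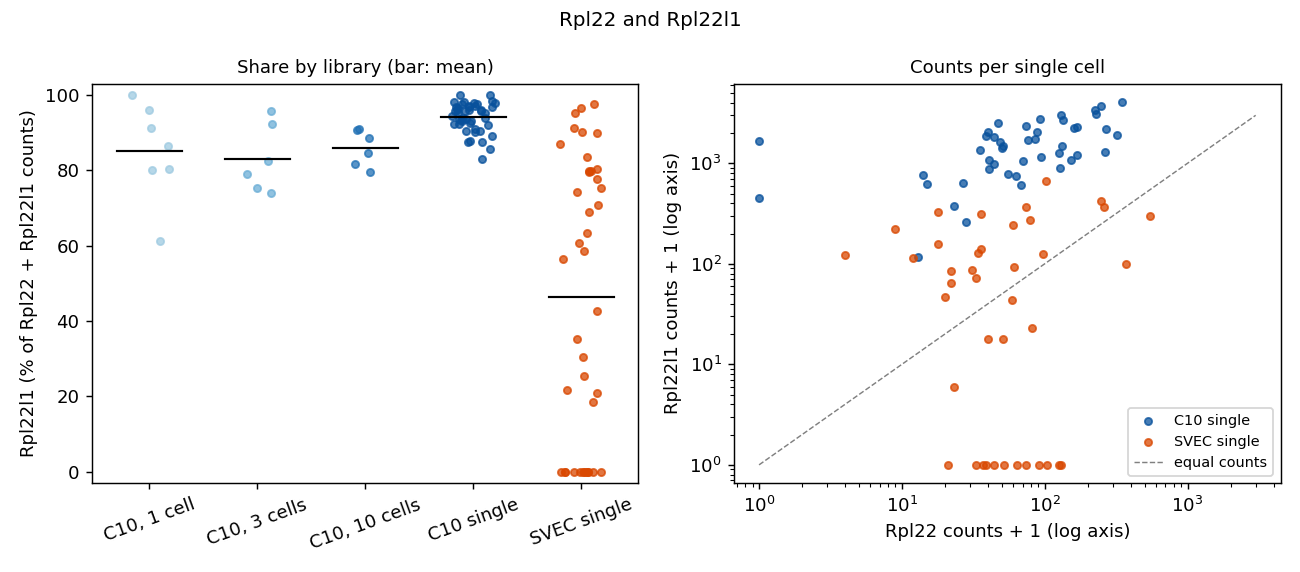
Rpl22l1 as a percent of the counts of Rpl22 and Rpl22l1 per library (left; bars are means) and the counts of both genes plus 1 in single cells (right, log axes, dashed line at equal counts). C10 single cells centre on 94.1%, and SVEC cells spread from 0% to 97.6%.

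Rpl22 itself had 0, 44.0 and 229.5 CPM in C10 at the lowest, median and highest and 0, 106 and 415 in SVEC. The coding sequences of Rpl22 and Rpl22l1 shared 70.2% of aligned bases, and the longest run that their transcripts had in common was 26 bases. That is shorter than a read of 150 bases. With at least 100 counts over the pair the difference was 31.4 percentage points (45 and 26 cells), and in the summed counts of each line the shares were 94.1% and 60.3%.

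The other 3 testable pairs did not pass. In C10, Rps27l took 61.7% ± 11.7 of the Rps27 and Rps27l counts (SD, n = 46), and the SVEC share was 59.6% ± 18.6 (SD, n = 46; permutation test, adjusted p = 0.52). Rpl7l1 took 20.9% ± 13.6 of its pair with Rpl7 (SD, n = 46) and 23.5% ± 21.8 (SD, n = 43; permutation test, adjusted p = 0.52). Rpl36al, which is not a member, took 53.4% ± 14.4 of its pair with Rpl36a (SD, n = 46) and 59.2% ± 22.0 (SD, n = 42; permutation test, adjusted p = 0.283). Rpl3l, Rpl10l and Rpl39l had no counts in the single cells. Rps27 and Rps27l shared 76.2% of coding bases, Rpl7 and Rpl7l1 56.9%, and Rpl36a and Rpl36al 87.7%. All these shares are of RNA counts, and whether the proteins of a pair replace each other in ribosomes was not examined.

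In the input series no member passed in any of the 3 pairs. Few large changes were recovered in counts simulated for these libraries, so the absence of calls does not show that levels were alike. With 10 cells against 1 cell, 0 of 79 members were higher and 0 lower, where 10.6% of all genes were higher and 0.0879% lower. With 3 cells against 1 cell the members' counts were again 0 and 0, against 6.07% and 0.278%. With 10 cells against 3 cells they were 0 and 0, against 0% and 0%. At an unadjusted p under 0.05, edgeR gave 0 members in each pair. DESeq2 called 4 members lower with 10 cells than with 1 cell (Rps2, Rps19, Rps28 and Rpl34), beside 134 of all 13645 genes. It called 1 lower with 3 cells than with 1 cell (Rps2), beside 254 of 13645. These 4 members were among the 9 detected in 1-cell replicate 1, which held the highest 1-cell level of each. Those levels were 3199 CPM for Rps2, 1927 for Rps19, 857 for Rps28 and 2038 for Rpl34. DESeq2 was not run without that library. limma called 0 members in each pair. The members' median log2 fold changes were 0.18, 0.13 and 0.04 in the 3 pairs, beside 0.36, 0.12 and 0.09 over all genes. They turned negative with DESeq2 size factors (-0.82, -0.48 and -0.35), as did those of all genes (-0.50, -0.34 and -0.30). In pools of several cells, fewer cells with a transcript and less RNA per cell cannot be told apart.

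The C10 line was also measured in both series, and the single cells were set against the 1-cell libraries. Rpl10, whose protein sits close to the peptidyl transferase centre, was higher in the single cells by 1.28 on the log2 scale (SE 0.46, edgeR adjusted p = 0.0456). Rpl6 fell by 1.58 (SE 0.33), Rps2 by 1.39 (SE 0.19), Rpl41 by 1.07 (SE 0.22) and Rps16 by 0.98 (SE 0.35). Counts simulated with no difference between these groups gave members a median below 0 with this scaling. The calls were 1 higher and 4 lower of 79 members, where 3.61% of all 12303 genes were higher and 11.4% lower. Rps2 had 379.97 CPM at the lowest, 758 at the median and 1503 at the highest in the single cells and 798, 1179 and 3199 in the 1-cell libraries, the highest in replicate 1. Without that library 9 members were higher and 4 lower, beside 410 and 1056 of all 12291 genes. With counts drawn down to 147254 per library, 19 were higher and 0 lower, beside 562 and 332 of 8327 genes. With limma 43 were higher and 1 lower, beside 641 and 515 of 12303 genes, and Rpl6 (0.05) and Rps16 (0.61) changed sign. Replicate 1 was kept in both the drawn-down and the limma fit, and Rpl6 and Rps16 were at 0 CPM in it. The series and any batch cannot be told apart.

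Within a group, ribosomal protein genes had a smaller spread from library to library than other well detected genes in 4 of the 5 groups, by little in SVEC. The median SD of log2(CPM + 1) was 0.26 over 79 members and 0.85 over 8101 other genes with 10 cells, and 0.37 and 0.95 with 3 cells. It was 0.62 over 78 members and 1.53 over 1743 other genes in C10 single cells. In SVEC it was 1.99 over 57 members and 2.00 over 391 other genes. With 1 cell it was 3.17 and 2.38, and 0.56 and 1.84 without replicate 1. No test was made of these spreads. Members and other genes were not matched on level, on which this SD depends, so what level adds to the difference was not tested.

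The steadiest members in C10 single cells were Rpsa (SD 0.37), Rpl4 (0.43) and Rpl13a (0.45). Rpsa, the laminin receptor precursor gene, had 584 CPM at the lowest, 1042 at the median and 1791 at the highest. The most variable were Rpl7l1 (1.95), a relative of Rpl7, Rpl22 (1.65) and Rpl36a (1.30). Rpl7l1 had 0, 337 and 1259 CPM. Rpl36a had 1.76, 313 and 767 CPM, the lowest in replicate 24 and the next 43.7.

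**Figure D5:**
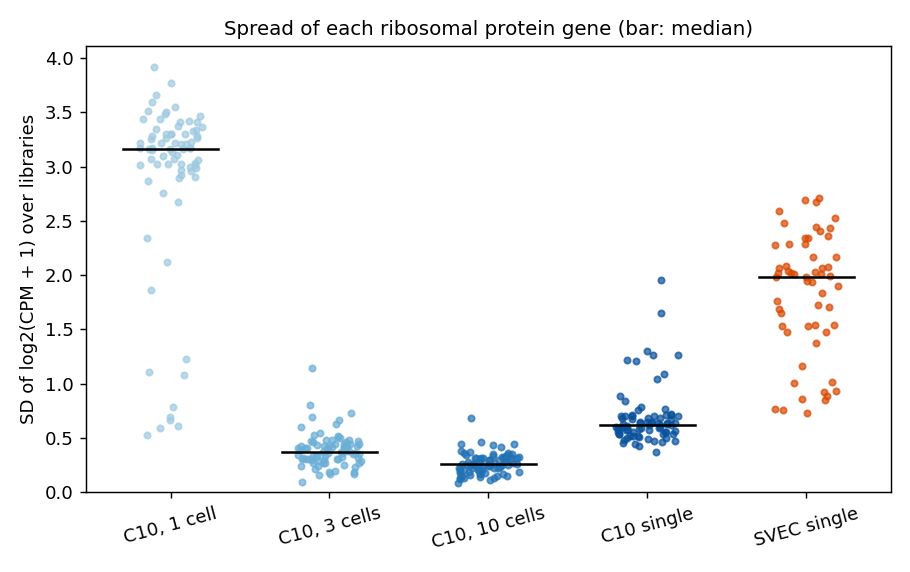
SD of log2(CPM + 1) over libraries for each well detected member, by group, with the median as a bar. The median is 3.17 with 1 cell (0.56 without replicate 1), 0.37 with 3 cells and 0.26 with 10 cells, and 0.62 in C10 and 1.99 in SVEC single cells.

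Levels of the members were correlated from cell to cell in C10. The Pearson r of log2(CPM + 1) between pairs of members had a mean of 0.457 over 78 members and 46 C10 cells. Its median was 0.482, where the median over all pairs of well detected genes was 0.0557. In SVEC the median was 0.241 over 57 members and 48 cells, beside 0.164. In the 42 SVEC libraries of at least 100000 counts it was 0.149, beside 0.0408. The C10 values include replicate 24, which had 3.52 CPM of Rpl5 where the next lowest cell had 188. They were not computed without that cell. Rpl37 and Rpl35 followed the other members most closely in C10 (mean r 0.616 and 0.605). Rpl7l1 (-0.0457), Rpl3 (0.0396) and Rpl4 (0.107) followed them least. Genes in a library share its depth, and the ribosomal protein share correlated with the log10 of library size at Pearson r = -0.511 over the C10 cells and -0.463 over the SVEC cells. By rank (Spearman) these were -0.415 and -0.253.

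Related genes were followed through fixed lists in the comparison of the lines, where 14.4% of all genes were called higher and 4.48% lower. Among ribosomal proteins made as fusions with ubiquitin or a ubiquitin-like protein, Rps27a (1.58) and Fau (0.92) were higher in C10. Of 20 other genes with terminal oligopyrimidine mRNAs, 12 were higher and 0 lower, with a median of 0.87. The largest were Rack1 (2.09), a scaffold on the small subunit, Eif3f (2.08), an initiation factor subunit, and Eef1g (1.68) and Eef1b2 (1.65), both elongation factor subunits. The list's median and count stand beside a median of 0.35 and 14.4% called higher over all genes.

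Genes that build the ribosome were followed in the same way. Of 55 ribosome biogenesis genes tested, 4 were higher and 0 lower: Nle1 (3.59), Pno1 (1.76), Nhp2 (1.43) and Eif6 (1.22), with a list median of 0.49. This share of higher calls is below the 14.4% of all genes. Of 20 RNA polymerase I genes only Polr2l, a subunit shared with the other polymerases, was higher (1.08, SE 0.32). Of 12 chaperones and importers only Hgh1 was higher (2.35, SE 0.83). Both shares were again below 14.4%. Of 14 mTORC1 and Myc genes tested, Eif4ebp1 (2.88, SE 0.39) and Rheb (0.97, SE 0.34) were higher. Pdcd4 (-2.94, SE 0.88) and Deptor (-2.82, SE 0.86) were lower. The share of higher calls was near the 14.4% of all genes, and that of the 2 lower calls was above 4.48%. The list median was 0.30, beside 0.35 over all genes. Eif4ebp1 encodes a repressor of cap-dependent translation that mTORC1 inactivates, Rheb an activator of mTORC1 and Deptor an inhibitor of it. Of 10 genes of the p53 response, 6 were higher and 0 lower, beside 14.4% and 4.48% of all genes. The largest were Sesn2 (5.91, SE 0.86), Zmat3 (4.89, SE 0.90), Bbc3 (3.90, SE 0.79) and Ccng1 (2.78, SE 0.63).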

How the data were processed

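RNA counts of 116 libraries were used. The deposited values are whole-number counts per gene symbol with 5 closing counters, which were left out of totals. The submitters' processing notes name FastQC, STAR and HTSeq with no versions. The build, annotation and strand setting are not given in the sources used here. Counts have no molecular identifiers, so limits cover counting error only. Genes were tested with edgeR 4.0.16 in R 4.3.3 (TMM scaling, quasi-likelihood F test, Benjamini-Hochberg over all genes tested), keeping genes with a count in 25% or more of either line's single-cell libraries, or in 50% or more of an input group. The input series was fitted as 1 model. SEs came from the F statistic. limma 3.58.1 on log2(CPM + 1) and DESeq2 1.42.0 were alternatives. The edgeR and limma fits were tested on simulated data. Without a true difference between the lines, edgeR with TMM scaling moved all genes towards C10 and called more unchanged genes than its threshold allows, limma hardly any. With known changes added, many of edgeR's calls between the lines were false, and in the input series few changes were recovered by either tool. CPM is counts per 1000000. RefSeq lengths had been planned for levels per kilobase, but the table gave gene spans, so GENCODE vM21 transcripts were used under 3 length rules tried in turn. The genes named with values were those of the paralog pairs, the 10 largest called changes per direction, the 3 highest and 3 lowest levels, the 3 largest and 3 smallest SDs in C10 single cells, members detected in under 50% of every group, and up to 4 called genes per list and direction. Members and lists were chosen with earlier results of these data known. Rps4l, planned as a pair with Rps4x, was not analysed here. Some items that met the naming rule are not reported here.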

Additional observations from a re-analysis of the deposited data

Results flagged for a closer look

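In the input series, 33 sets of 4 to 10 library values were examined for an outlying library, and chance flags about 1 set in 20 where values vary freely. That rate does not hold for all 33. Some sets had equal values in all libraries and cannot be flagged. Where all other libraries are equal, any differing value is flagged. The 1-cell replicate 1 detected 9 members, where the other 1-cell libraries detected 78 or 79, and its share of -ps symbols was 0.0109%, where the others had 0.0369% to 0.0585%. The 3-cell replicate 9 detected 80 members, where the other 3-cell libraries detected 79, the extra member being Rpl3l, at 4.64% of the counts of Rpl3 and Rpl3l. Both flags of this library rest on the same Rpl3l counts, with the other libraries equal. The 3-cell replicate 2 had 66.6% of the Rpl36a and Rpl36al counts on Rpl36al, where the others had 45.4% to 53.1%.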

How the results depend on the processing

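Members higher in C10 than in SVEC numbered 71. With the detection rate as a covariate 46 were higher, beside 673 of all 9303 genes. Of the other alternatives, which gave 52 to 75, library totals alone had 932 of 9303 genes higher and limma 2895. Members lower numbered 0, with 2 under the 90% filter and 1 with library totals alone. Over all genes, 112 of 1832 and 656 of 9303 were lower in these fits. Rpl28 turned to -0.63 with the detection covariate. Among all genes, 76.2% of calls were higher in C10, against 58.7% with library totals alone and 50.4% with the covariate. Leaving out 3 libraries over 20% mitochondrial, chosen after seeing the data, gave 75 higher, beside 1698 of 9242 genes.

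In the input series DESeq2 gave 4 members lower with 10 cells than with 1 cell and 1 lower with 3 cells than with 1 cell. Over all 13645 genes it gave 134 and 254 lower. Each of these members had its highest 1-cell level in 1-cell replicate 1, and DESeq2 was not run without that library. In C10 single cells against 1-cell libraries (1 higher, 4 lower), counts drawn down gave 19 and 0, library totals alone 15 and 1, limma 43 and 1, and leaving out 1-cell replicate 1 gave 9 higher. Over all genes, counts drawn down gave 562 and 332 of 8327, and library totals alone 533 and 935 of 12303. limma gave 641 and 515 of 12303 genes, and 410 of 12291 were higher without replicate 1. With limma Rpl6 was 0.053 and Rps16 0.61. Both genes were at 0 CPM in 1-cell replicate 1, which the limma fit kept, and limma was not run without it. The cause of these differences between fits was not tested. The share outside mitochondrial counts was 5.58% with 3 cells and 6.27% with 10 cells.

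Same-numbered libraries had a mean r of 0.0016 for the lines, 0.022 for 3 cells against 1 cell and 0.016 for 10 against 3, and not every pair exceeded 0.1, so the numbers were not taken to pair libraries. As a hint from the data, 3 of 6 and 2 of 6 libraries matched their own number best in the last 2, and replicate 1 of the 3-cell and 10-cell libraries had the most mitochondrial counts of its group (16.7% and 17.8%). A replicate block gave 73 members higher in C10 than in SVEC, beside 2808 of all 9303 genes. In the single cells against 1-cell libraries it gave 0 higher and 0 lower, beside 0 and 1 of 12303 genes. In the input pairs it gave 0 members and 0 of 13645 genes.

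Levels per kilobase depend on the transcript chosen, as 3 length rules showed. Depth limits what a SVEC library shows: 19 of 48 had no Rpl22l1 count, and 13 of the 42 with at least 100000 counts.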
